A study of Homo sapiens with 12 samples.

Results

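The genes described here are 32 genes of glycolysis and the pentose phosphate pathway, with the enzymes and carriers that decide where pyruvate and lactate go. They were chosen by symbol and are 32 of the 58288 genes in the deposited count table, each matched to 1 row. RNA was sequenced from HL-60/S4, an established human acute promyelocytic leukemia cell line, in 12 libraries, 3 for each of 4 groups. Promyelocytes (the undifferentiated line) and granulocytes (the same line after 4 days in 1 µM all-trans retinoic acid, ATRA) were given TNF-α at 16 ng/mL or vehicle for 2 h, and each library came from its own flask. All cells were of passage 8 and the same seed lot, grew in calcium-supplemented medium, and belong to 1 cell line, so p-values measure the spread between flasks. The 2 cell types were treated in separate experiments. For levels in promyelocytes against granulocytes, cell type and experiment cannot be told apart, and these levels are given without a test. Each TNF-α response is measured within its own experiment. The difference of the 2 responses is tested, but for it too cell type and experiment cannot be told apart.

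Glycolysis splits glucose into pyruvate in the cytosol and is the main source of ATP in neutrophils. Its pace is set mainly at hexokinase, phosphofructokinase and pyruvate kinase, and fructose-2,6-bisphosphate, made and removed by the PFKFB enzymes, is the strongest activator of phosphofructokinase. Pyruvate either becomes lactate, which leaves the cell through monocarboxylate transporters, or enters mitochondria through pyruvate dehydrogenase, which PDK kinases switch off. The pentose phosphate pathway branches off at glucose-6-phosphate. Its oxidative branch makes NADPH, the electron donor of the neutrophil NADPH oxidase, and its non-oxidative branch interconverts pentose phosphates and glycolytic intermediates.

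The library totals ran from 22829189 to 31895061 read pairs, and the 32 genes together held 1.44 to 1.61% of them in promyelocytes and 0.997 to 1.11% in granulocytes. Levels are CPM, the count scaled to a common library size, with sizes adjusted by the trimmed mean of M values (TMM). At these depths 3 counts, taken as the floor, stand at 0.0941 to 0.131 CPM, which covers counting error only. The target genes *NFKBIA*, *TNFAIP3* and *BIRC3* rose by 3.63 to 5.58 on the log2 scale in promyelocytes and by 5.08 to 8.31 in granulocytes. The granulocytic markers *ITGAM* (6.36 CPM with vehicle in promyelocytes, 299 CPM in granulocytes) and *CD38* (8.45 and 1170 CPM) were high in granulocytes. The primary granule gene *MPO* was high in both cell types (6378 and 2030 CPM), and *ELANE*, another such gene, was at only 1.78 and 0.0224 CPM. Of the markers of other cells, *MARCO*, *MS4A1*, *HBB*, *PF4* and *COL1A2* were at 0 in every library. The monocyte receptor gene *CSF1R* fell in granulocytes from 49.95 to 32.02 CPM. *COL1A1*, the other of 2 fibroblast markers, passed the filter on low counts in promyelocytes only. It rose there with TNF-α (log2 change 3.55), and the responses differed by -3.95. In each cell type 1 of 2 T cell, B cell and megakaryocyte markers also passed that filter, and none of these was called. With TNF-α 3 of 6 granulocytic markers fell in granulocytes (*ITGAM* by 0.26, *CD38* by 0.19 and *CSF3R* by 0.31 on the log2 scale) and 1 rose. In promyelocytes the granulocytic marker *CYBB* rose by 0.96, from 111.8 to 217.8 CPM, and *CSF3R* fell by 0.45. Of 5 primary granule genes 3 fell in promyelocytes (*MPO* by 0.23, *PRTN3* by 0.30 and *CTSG* by 0.25). None of the 4 tested in granulocytes was called there. Their part in the results below was not tested.

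In granulocytes 22 of the 31 members tested (71.0%) changed with TNF-α, 12 upward and 10 downward, at an adjusted p under 0.05. The percentage called was 49.2 over all 16944 genes tested, 24.4 up and 24.8 down. Among genes with a mean of at least 10 CPM it was 61.7, so the members' share lies not far above theirs. The 31 members tested include some under 10 CPM, such as *PFKFB2* and *PDK3*, so the sets differ. In RNA from bulk cultures, fewer cells of a state and less RNA per cell cannot be told apart. In promyelocytes 1 of 30 members changed, downward, against 14.8% of all 16250 genes tested (8.15% up and 6.65% down, and 19.7% at 10 CPM or more). At an unadjusted p under 0.05 there were 6 of 30 members (20.0%), against 26.9% of all genes tested, and DESeq2 called 1, also downward, where edgeR called no rise. The responses of the 2 cell types were compared in 1 fit of all 12 libraries, where 16 of 31 members differed, 12 with a higher and 4 with a lower response in granulocytes. The TNF-α libraries lay apart from the vehicle libraries for 21 members in granulocytes, 12 above and 9 below, where 55.2% of all genes tested did so, 27.3% above and 27.9% below. In promyelocytes this held for 5 members, all below, where 31.1% of all genes did so, 16.0% above and 15.1% below. Large changes were few: 2 members were called with a rise of 2-fold or more and 1 with a fall of that size in granulocytes (6.07 and 4.23% of all genes), and none in promyelocytes (1.94 and 0.529%). Over all 18124 genes of the fit of both cell types 24.0% differed, 14.1% higher and 9.88% lower. With DESeq2 size factors in place of TMM the members kept their split of 12 and 4, and all genes moved from 2561 higher and 1790 lower to 2128 and 2266. Scaling by library totals alone moved the median log2 change of all genes to -0.14 in granulocytes and -0.12 in the difference, gave 2810 rises and 6236 falls over all genes in granulocytes against 4135 and 4209, and gave 8 and 13 among the members. In the difference it gave 1570 higher and 3530 lower over all genes, and 9 and 8 among the members. The median log2 change of the members was -0.04 in promyelocytes and 0.06 in granulocytes, beside -0.01 and -0.01 over all genes tested. *ENO2*, the neuronal enolase, passed the filter on low counts in neither cell type, with 0 to 9 counts a library. *PFKFB2* did not pass it in promyelocytes, with 4 to 10 counts. *PFKFB4*, 1 of the 10 members that fell in granulocytes, passed it there through its vehicle libraries, which favours a fall.

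**Figure D1:**
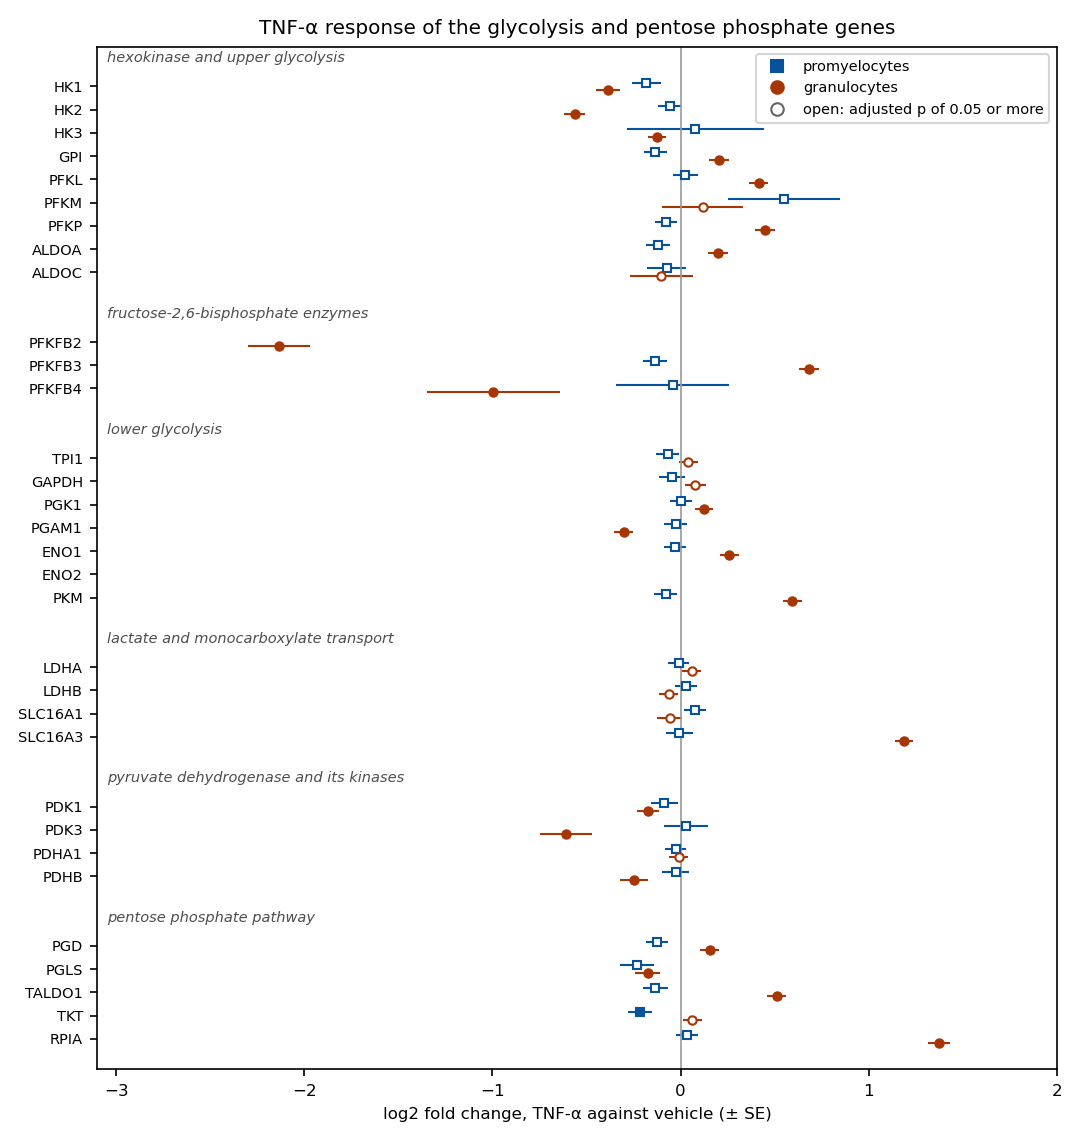
Log2 fold change of each gene with TNF-α against vehicle (x axis, with its SE) in promyelocytes (squares) and granulocytes (circles), grouped by role, 3 libraries a group. Filled symbols have an adjusted p under 0.05: 22 genes in granulocytes lie on both sides of 0, from *PFKFB2* at -2.14 to *RPIA* at 1.37, and *TKT* at -0.22 is the 1 filled square.

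Of the 9 genes of upper glycolysis, from hexokinase to aldolase, 4 rose and 3 fell in granulocytes and none passed the test in promyelocytes. The 3 that fell are the hexokinases, which trap glucose in the cell as glucose-6-phosphate, and the 4 that rose act after them. Over all genes tested 24.4% rose and 24.8% fell in granulocytes, and 14.8% changed in promyelocytes. These shares stand beside the counts of each group of genes below. *HK2* (chr2:74833981-74893359, plus strand, hg38) stood at 249, 247 and 245 CPM in promyelocytes with vehicle and at 246, 219 and 247 CPM with TNF-α. In granulocytes it was at 79.3, 88.1 and 91.2 CPM with vehicle and at 57.8, 57.3 and 60.1 CPM with TNF-α. The granulocyte groups did not overlap and the promyelocyte groups did. The log2 fold change was -0.56 ± 0.06 (SE, adjusted p = 8.23e-11) in granulocytes and -0.06 ± 0.06 (adjusted p = 0.584) in promyelocytes, and the responses differed by -0.47 ± 0.08 (adjusted p = 1.16e-04). *HK1*, the ubiquitous hexokinase, fell in granulocytes from 51.5 ± 2.92 (SD, n = 3) to 39.5 ± 3.43 CPM, a log2 change of -0.38 (adjusted p = 3.25e-06). In promyelocytes its 3 TNF-α libraries also lay below the vehicle libraries, at 18.6 to 19.2 against 20.9 to 21.9 CPM, without passing the test (log2 change -0.18, adjusted p = 0.128). *HK3*, the myeloid hexokinase, went from 121 ± 4.21 to 111 ± 1.93 CPM in granulocytes (log2 change -0.12, adjusted p = 0.0344). This small call did not hold without vehicle library 1 or 3 or without any 1 of the TNF-α libraries, where the adjusted p was 0.0504 to 0.128, nor with DESeq2 (0.0519), with no expression filter (0.0588) or in 1 fit of all 12 libraries (0.166).

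The share of each hexokinase in the counts per kilobase of exon of all 3 moved with these falls. *HK3* held 64.6, 60.9 and 60.3% in vehicle granulocytes and 66.9, 68.8 and 67.4% with TNF-α. *HK2* held 22.0, 24.6 and 24.9% and then 18.9, 18.9 and 20.1%, and *HK1* went from 14.2 ± 0.714 to 13.02 ± 1.01% with overlapping groups. *HK2* was the main isozyme in promyelocytes, at 91.6 ± 0.0439% with vehicle and 92.1 ± 0.389% with TNF-α, and *HK3* held 0.493 and 0.539% there. With 3 libraries against 3, the exact permutation test of a share cannot give a two-sided p under 0.1, and it gave 0.1 for *HK2* and *HK3* in granulocytes.

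*GPI*, which turns glucose-6-phosphate into fructose-6-phosphate, stood at 508, 476 and 478 CPM in vehicle promyelocytes and 456, 409 and 466 CPM with TNF-α. The order was the opposite in granulocytes, at 155, 166 and 177 CPM and then 206, 187 and 182 CPM. Neither pair of groups overlapped, and the log2 changes were -0.14 (adjusted p = 0.16) and 0.21 ± 0.05 (adjusted p = 0.00153). The responses differed by 0.38 ± 0.09 (adjusted p = 0.00216). Scaling by library totals alone ended the granulocyte call (adjusted p = 0.225).

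The phosphofructokinase subunit genes, whose product commits hexoses to glycolysis, rose in granulocytes for both abundant forms. *PFKL*, the liver form, stood at 184, 174 and 194 CPM with vehicle and at 250, 245 and 241 CPM with TNF-α in granulocytes. Its promyelocyte levels were 187, 186 and 176 CPM and then 169.7, 184 and 205 CPM, with overlapping groups. Its log2 change in granulocytes was 0.42 ± 0.05 (adjusted p = 5.82e-09). *PFKP*, the platelet form, stood at 114, 124 and 126 CPM and then at 171, 160.5 and 166 CPM in granulocytes. It went from 251, 247 and 232 CPM to 221, 224 and 248 CPM in promyelocytes, again with overlap. The change of *PFKP* in granulocytes was 0.45 ± 0.05 (adjusted p = 1.7e-09), close to that of *PFKL*, and its share of the family stayed within the spread (54.6 ± 1.86 and 55.2 ± 0.633%). The responses of the cell types differed by 0.43 for *PFKL* (adjusted p = 5.33e-04) and 0.57 for *PFKP* (adjusted p = 9.03e-06). After trends with GC content and length were removed, the difference of *PFKL* was 0.05 (adjusted p = 0.582). *PFKM*, the muscle form, was at 0.87 to 2.25 CPM on average in the 4 groups and did not pass the test in either cell type.

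*ALDOA*, the main aldolase, stood at 829.7, 795 and 879 CPM in vehicle granulocytes and 1013, 927 and 930.5 CPM with TNF-α, with no overlap. Promyelocytes had 1621, 1474 and 1412 CPM and then 1343, 1330 and 1469 CPM, with overlap. The log2 change in granulocytes was 0.20 ± 0.05 (adjusted p = 0.00202) and the responses differed by 0.36 ± 0.09 (adjusted p = 0.00391). Both calls were lost after trends with GC content and length were removed (adjusted p = 0.56 and 0.319), and the granulocyte call also with scaling by library totals (0.267). *ALDOC*, its brain form, did not pass the test in either cell type, at 3.42 to 14.03 CPM.

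The PFKFB genes moved in opposite directions in granulocytes. *PFKFB3*, the form with the highest kinase over phosphatase activity, stood at 81.8, 79.3 and 86.4 CPM with vehicle and at 140.5, 131 and 126 CPM with TNF-α. In promyelocytes it was at 46.3, 47.9 and 44.6 CPM and then at 42.9, 40.0 and 43.3 CPM. The TNF-α libraries were all above the vehicle libraries in granulocytes and all below them in promyelocytes, and the log2 changes were 0.68 ± 0.05 (adjusted p = 1.03e-13) and -0.14 ± 0.06 (adjusted p = 0.171). The responses differed by 0.86 ± 0.08 (adjusted p = 1.4e-08).

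*PFKFB2*, the heart form (chr1:207034366-207081024, plus strand), showed the largest fall of all members. It stood at 6.78, 7.14 and 6.51 CPM in vehicle granulocytes and at 1.66, 1.47 and 1.53 CPM with TNF-α, which left 0.228 times the level (log2 change -2.14 ± 0.17, adjusted p = 1.2e-13). In promyelocytes it lay near the floor, at 0.192, 0.147 and 0.243 CPM and then 0.380, 0.217 and 0.127 CPM. The difference of the responses, -2.36 ± 0.51 (adjusted p = 0.00105), rests on those 4 to 10 counts in promyelocytes. *PFKFB4* stood at 1.00, 1.20 and 0.911 CPM in vehicle granulocytes and at 0.447, 0.715 and 0.361 CPM with TNF-α. It showed no overlap and a log2 change of -0.99 ± 0.36 (adjusted p = 0.0195). In promyelocytes the values were 1.31, 0.989 and 0.763 CPM and then 0.989, 1.05 and 0.953 CPM, with overlap, and the responses did not pass the test of a difference (-0.91 ± 0.46, adjusted p = 0.159). The granulocyte call of *PFKFB4* was lost with DESeq2 (adjusted p = 0.086) and without vehicle library 2, TNF-α library 1 or TNF-α library 3 (adjusted p = 0.0862, 0.0634 and 0.0938). *PFKFB3* was the abundant form throughout, and its share per kilobase of these 3 genes went from 94.1 ± 0.594 to 98.9 ± 0.113% in granulocytes. The share of *PFKFB2* went from 4.67 ± 0.385 to 0.695 ± 0.0286%.

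A stretch before a RefSeq start of *PFKFB3* (base 6202932 of chromosome 10, GRCh38.p14) is shown because it holds CACGTG, the E-box, in capitals. This palindrome holds ACGTG, the core of hypoxia response elements, on both strands.
PFKFB3 chr10:6202694-6202865 (+ strand): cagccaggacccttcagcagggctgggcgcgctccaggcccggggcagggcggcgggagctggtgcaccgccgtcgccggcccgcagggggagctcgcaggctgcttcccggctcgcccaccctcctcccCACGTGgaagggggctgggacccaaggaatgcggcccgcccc

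The window of the same start, which runs from 250 bases before it, also matched the NF-κB motif (the 10-letter kB consensus) outside this stretch. *PFKFB3* has 2 RefSeq starts, and the window of the other held no match to these motifs.

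Of the 6 members of lower glycolysis that were tested, 3 rose and 1 fell in granulocytes and none passed in promyelocytes. *PKM*, the pyruvate kinase of these cells (chr15:72199029-72231822, minus strand), changed the most. It stood at 882, 892 and 927 CPM in vehicle granulocytes and at 1425, 1318 and 1338 CPM with TNF-α, a rise of 51.1% (log2 change 0.60 ± 0.05, adjusted p = 2.3e-12). The promyelocyte values of 1339, 1225 and 1184 CPM with vehicle and 1180, 1125 and 1242 CPM with TNF-α overlapped (log2 change -0.08, adjusted p = 0.458). The responses differed by 0.71 ± 0.08 (adjusted p = 2.88e-07). The counts are per gene and do not separate the spliced forms of *PKM*.

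*ENO1*, the main enolase, stood at 1020, 1034 and 1115 CPM in vehicle granulocytes and 1313, 1264 and 1218 CPM with TNF-α. Its promyelocyte levels were 2473, 2347 and 2224 CPM and then 2252, 2305 and 2352 CPM. The groups were apart in granulocytes and overlapped in promyelocytes, with log2 changes of 0.26 ± 0.05 (adjusted p = 7.5e-05) and -0.03 (adjusted p = 0.802) and a difference of 0.33 ± 0.08 (adjusted p = 0.00357). The difference was lost when libraries were scaled by totals alone (adjusted p = 0.0604). *PGAM1*, phosphoglycerate mutase, was the member of this stretch that fell. It stood at 562, 523 and 556 CPM in vehicle granulocytes and at 446, 455 and 430 CPM with TNF-α (log2 change -0.30 ± 0.05, adjusted p = 2.97e-06). Promyelocytes had 510.3, 448 and 443 CPM and then 454, 466 and 455 CPM, within the spread. The difference of the responses of *PGAM1*, -0.24 ± 0.08 (adjusted p = 0.0364), was lost without promyelocyte vehicle library 2 or 3, promyelocyte TNF-α library 2, granulocyte vehicle library 1 or 3, or granulocyte TNF-α library 2 or 3 (adjusted p = 0.0522 to 0.105).

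*GAPDH*, which the study used together with *COX4I1* to normalise its RT-qPCR, had the highest level of all members, both in CPM and per kilobase. It stood at 4435, 4175 and 3915 CPM in vehicle promyelocytes and 3629, 4281 and 4235 CPM with TNF-α. Granulocytes held 2361, 2364 and 2584 CPM with vehicle and 2721, 2560 and 2437 CPM with TNF-α. Both pairs of groups overlapped. The log2 change was -0.04 ± 0.07 (adjusted p = 0.732) in promyelocytes, 0.00 with a positive sign after trends with GC and length were removed, and 0.08 ± 0.06 (adjusted p = 0.255) in granulocytes, where scaling by library totals gave -0.05 and the GC and length fit -0.07. *PGK1*, phosphoglycerate kinase, rose in granulocytes by 0.13 on the log2 scale (542 ± 10.8 to 592 ± 8.29 CPM, adjusted p = 0.0286). Library totals alone gave it a log2 change of 0.00 with a negative sign, and the call was lost with no expression filter (adjusted p = 0.0567) and without vehicle library 1 or 2 or TNF-α library 2 (adjusted p = 0.0548, 0.0916 and 0.107). *TPI1* did not pass the test in either cell type (705 and 672 CPM in promyelocytes, 416 and 428 CPM in granulocytes).

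Of the 4 genes that make and move lactate, *SLC16A3* alone passed the test, in granulocytes. It encodes MCT4, the carrier that exports lactate from highly glycolytic cells (chr17:82228397-82261129, plus strand). *SLC16A3* stood at 283, 281 and 282 CPM in vehicle granulocytes and at 637, 649 and 642 CPM with TNF-α. The promyelocyte values were 201, 185 and 182 CPM and then 164, 196 and 205 CPM. The granulocyte groups lay far apart with a 2.28-fold rise (log2 change 1.19 ± 0.05, adjusted p = 4.6e-22). The promyelocyte groups overlapped (log2 change -0.01, adjusted p = 0.967), and the responses differed by 1.23 ± 0.09 (adjusted p = 8.25e-11).

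*SLC16A1*, which encodes MCT1, a carrier of lactate in either direction, was at 325 ± 10.1 CPM in promyelocytes and 38.7 ± 3.06 CPM in granulocytes with vehicle, and did not pass the test in either. Per kilobase, *SLC16A3* held 80.1, 80.9 and 82.5% of the sum of both carriers in vehicle granulocytes and 91.6, 90.9 and 90.8% with TNF-α. In promyelocytes it held 25.6 ± 1.11 and 24.5 ± 2.70%, with overlap. The lactate dehydrogenase genes did not pass the test: *LDHA*, the muscle form, went from 126 ± 7.24 to 131 ± 3.10 CPM in granulocytes (adjusted p = 0.335) and *LDHB*, the heart form, from 262 ± 13.4 to 250.4 ± 8.67 CPM (adjusted p = 0.304). In promyelocytes both stood at 692 to 744 CPM on average (adjusted p = 0.941 and 0.799).

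Stretches before 2 RefSeq starts of *SLC16A3* (bases 82229042 and 82232232 of chromosome 17, GRCh38.p14) are shown because each holds 1 match to the NF-κB motif. Capitals mark that match and, in the first stretch, 2 further matches to ACGTG. *SLC16A3* has 5 RefSeq starts, and the windows of its other starts held no match to these motifs or the E-box.
SLC16A3 chr17:82228792-82229031 (+ strand): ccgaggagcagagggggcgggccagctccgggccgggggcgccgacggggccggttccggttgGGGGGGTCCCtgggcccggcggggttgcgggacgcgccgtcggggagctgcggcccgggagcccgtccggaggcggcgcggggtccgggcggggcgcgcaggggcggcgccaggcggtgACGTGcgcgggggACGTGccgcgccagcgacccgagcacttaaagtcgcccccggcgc
SLC16A3 chr17:82231982-82232231 (+ strand): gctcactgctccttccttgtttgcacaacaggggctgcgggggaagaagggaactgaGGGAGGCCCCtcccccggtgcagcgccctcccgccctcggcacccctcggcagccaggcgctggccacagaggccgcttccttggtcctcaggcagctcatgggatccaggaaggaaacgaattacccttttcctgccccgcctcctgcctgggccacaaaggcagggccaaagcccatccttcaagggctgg

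These matches describe the letters and do not show binding. Over 35116 RefSeq start windows of 250 bases before to 50 bases after a start, searched on both strands, 11.3% held the NF-κB motif, 21.4% held ACGTG and 7.26% held CACGTG, which contains ACGTG. Of the 56 windows of members, 9 (16.1%), 21 (37.5%) and 7 (12.5%) held them. The windows of 1 gene overlap in part and are not independent. *PFKFB2* and *SLC16A1* had no entry.

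Of the 4 genes of the pyruvate dehydrogenase step, 3 fell and none rose in granulocytes. Over all genes tested 24.8% fell and 24.4% rose there. Among other genes of this step *PDHX*, *DLD* and *PDP1* rose in granulocytes and *DLAT* fell. *PDK3*, a kinase that inactivates the complex, stood at 5.54, 6.71 and 7.42 CPM with vehicle and at 4.11, 4.54 and 4.24 CPM with TNF-α in granulocytes. In promyelocytes it was at 8.05, 8.68 and 7.56 CPM and then at 8.71, 7.51 and 8.58 CPM. The granulocyte groups did not overlap, with a log2 change of -0.61 ± 0.14 (adjusted p = 3.59e-04), and the responses differed by -0.60 ± 0.18 (adjusted p = 0.0133, and 0.0503 without granulocyte vehicle library 3). *PDK1*, a second such kinase, went from 38.5 ± 0.332 to 34.2 ± 0.770 CPM (log2 change -0.17, adjusted p = 0.0168), and its call was lost with DESeq2 (adjusted p = 0.0591), in 1 fit of all 12 libraries (0.0639) and without vehicle library 2 or TNF-α library 2 (adjusted p = 0.0542 and 0.0751). Per kilobase, *PDK1* took 51.7 ± 3.54% of the sum of the 2 kinases in vehicle granulocytes and 59.0 ± 1.39% with TNF-α. *PDHB*, the E1 beta subunit of the complex, fell from 24.6 ± 1.76 to 20.7 ± 0.913 CPM (log2 change -0.25 ± 0.07, adjusted p = 0.00528). *PDHA1*, the E1 alpha subunit, stayed at 86.8 ± 2.37 and 86.2 ± 2.81 CPM (adjusted p = 0.898).

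**Figure D2:**
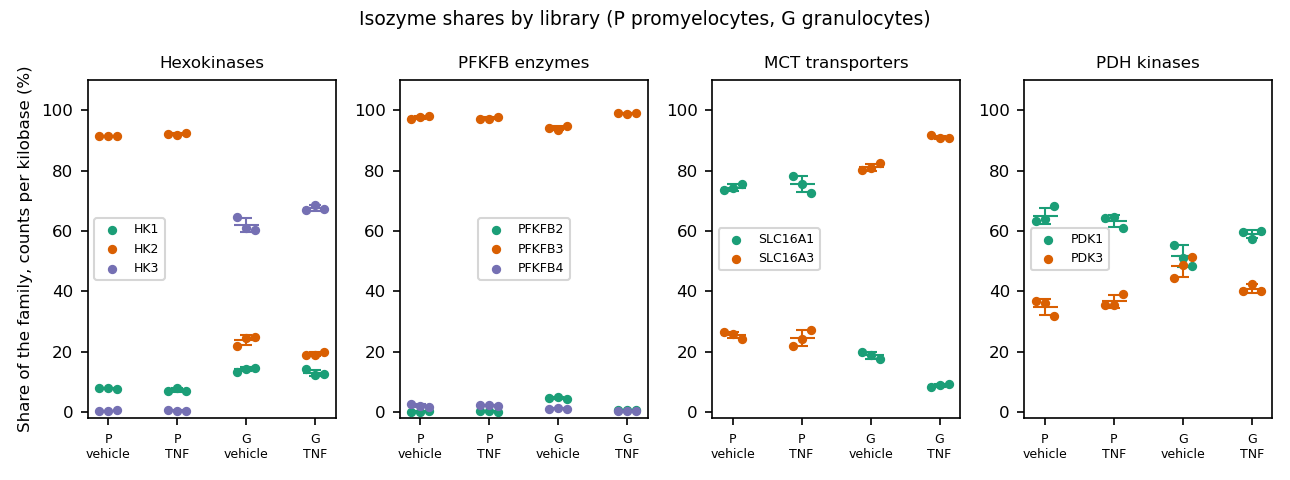
Share of each isozyme gene in the counts per kilobase of its family (y axis, %) in each library of promyelocytes (P) and granulocytes (G) with vehicle or TNF-α, with mean and SD. In granulocytes with TNF-α *SLC16A3* lay at 90.8 to 91.6% against 80.1 to 82.5% with vehicle, and *HK2* lay lower and *HK3* higher than with vehicle.

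The pentose phosphate pathway held the member with the largest rise. *RPIA*, ribose-5-phosphate isomerase, which converts ribulose-5-phosphate to ribose-5-phosphate for nucleotide synthesis (chr2:88691644-88750935, plus strand), stood at 48.4, 49.9 and 45.2 CPM in vehicle granulocytes and at 113, 129 and 129.5 CPM with TNF-α. Its promyelocyte levels were 66.7, 63.2 and 67.3 CPM and then 68.2, 69.0 and 64.7 CPM. The granulocyte groups lay far apart, with a 2.59-fold rise (log2 change 1.37 ± 0.06, adjusted p = 1.17e-21), and the promyelocyte groups overlapped (log2 change 0.03 ± 0.06, adjusted p = 0.755). The responses differed by 1.38 ± 0.09 (adjusted p = 2.41e-12).

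The stretch before the RefSeq start of *RPIA* (base 88691673 of chromosome 2) is shown as that of the member with the largest rise. It held no match to the 3 motifs, which says only that those letters are not in it.
RPIA chr2:88691519-88691643 (+ strand): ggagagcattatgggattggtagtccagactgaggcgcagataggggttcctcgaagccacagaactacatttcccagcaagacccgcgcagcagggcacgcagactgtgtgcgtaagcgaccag

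*TALDO1*, transaldolase of the non-oxidative branch, stood at 82.9, 82.0 and 83.1 CPM in vehicle granulocytes and at 123, 115 and 115 CPM with TNF-α. Promyelocytes had 134, 120.3 and 116 CPM and then 107, 116 and 115 CPM. The groups were apart in granulocytes (log2 change 0.51 ± 0.05, adjusted p = 6.03e-11) and overlapped in promyelocytes (-0.13 ± 0.06, adjusted p = 0.191), and the responses differed by 0.68 ± 0.09 (adjusted p = 8.05e-07). *TKT*, transketolase of the same branch, was the 1 member called in promyelocytes. Its level there was 311, 290.1 and 273 CPM with vehicle and 238, 244 and 269.9 CPM with TNF-α, without overlap (log2 change -0.22 ± 0.06, adjusted p = 0.0261). Without vehicle library 1 or 2 or TNF-α library 1 or 2 that call was lost (adjusted p = 0.13, 0.0873, 0.0904 and 0.11). *TKT* overlapped in granulocytes, at 234, 225 and 244 CPM and then 261, 235 and 238 CPM (log2 change 0.06, adjusted p = 0.322). That change turned to -0.07 both under library totals and after trends with GC and length were removed. The responses of *TKT* differed by 0.32 ± 0.09 (adjusted p = 0.00902), and this difference was lost under those settings (adjusted p = 0.126 and 0.29).

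*PGD*, an NADPH-producing enzyme of the oxidative branch, was the most abundant pentose phosphate member per kilobase, at 316 ± 14.7 CPM per kilobase in vehicle granulocytes. It stood at 904, 921 and 987 CPM in vehicle granulocytes and 1110, 1006 and 1014 CPM with TNF-α. In promyelocytes it was at 305, 284 and 281 CPM and then 269, 253 and 276 CPM. The TNF-α libraries lay above vehicle in granulocytes and below it in promyelocytes, with log2 changes of 0.15 ± 0.05 (adjusted p = 0.015) and -0.13 ± 0.06 (adjusted p = 0.173), and the responses differed by 0.32 ± 0.08 (adjusted p = 0.00526). Library totals alone gave *PGD* an adjusted p of 0.714 in granulocytes and 0.0973 for the difference. The granulocyte call was also lost after trends with GC and length were removed (adjusted p = 0.0699) and without vehicle library 1 or 2 or TNF-α library 1 (adjusted p = 0.0626, 0.0651 and 0.101). *PGLS*, 6-phosphogluconolactonase, fell in granulocytes by 0.17 on the log2 scale (49.9 ± 4.67 to 44.1 ± 3.89 CPM, adjusted p = 0.0295) with overlapping groups. Without vehicle library 1 or 3 or TNF-α library 3 its adjusted p was 0.062, 0.269 and 0.248, DESeq2 gave 0.107 and 1 fit of all 12 libraries 0.167, and the log2 change without either of the last 2 was -0.10.

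A further 50 genes of these pathways were counted as well, from a list written by hand. Of them 5 rose and 12 fell among 31 tested in granulocytes, and 2 rose and 6 fell among 29 tested in promyelocytes, against the percentages over all genes given above. *H6PD*, which makes NADPH in the endoplasmic reticulum, fell in both cell types, from 19.5 to 13.01 CPM in promyelocytes and from 776 to 514 CPM in granulocytes (log2 changes -0.58 and -0.60, adjusted p = 7.22e-05 and 5.94e-12).

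*TXNIP*, an inhibitor of glucose uptake that glucose itself induces, also fell in both, from 96.6 to 81.3 CPM and from 451 to 275 CPM (log2 changes -0.25 and -0.71, adjusted p = 0.00583 and 3.78e-15), and more in granulocytes (difference -0.43 ± 0.07, adjusted p = 7.59e-05). *SHPK*, which phosphorylates sedoheptulose, fell in granulocytes from 2.16 to 1.35 CPM (log2 change -0.67, adjusted p = 0.017). That call was lost with DESeq2 (adjusted p = 0.0723) and without vehicle library 1 or TNF-α library 2 (adjusted p = 0.0611 and 0.0548).

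**Figure D3:**
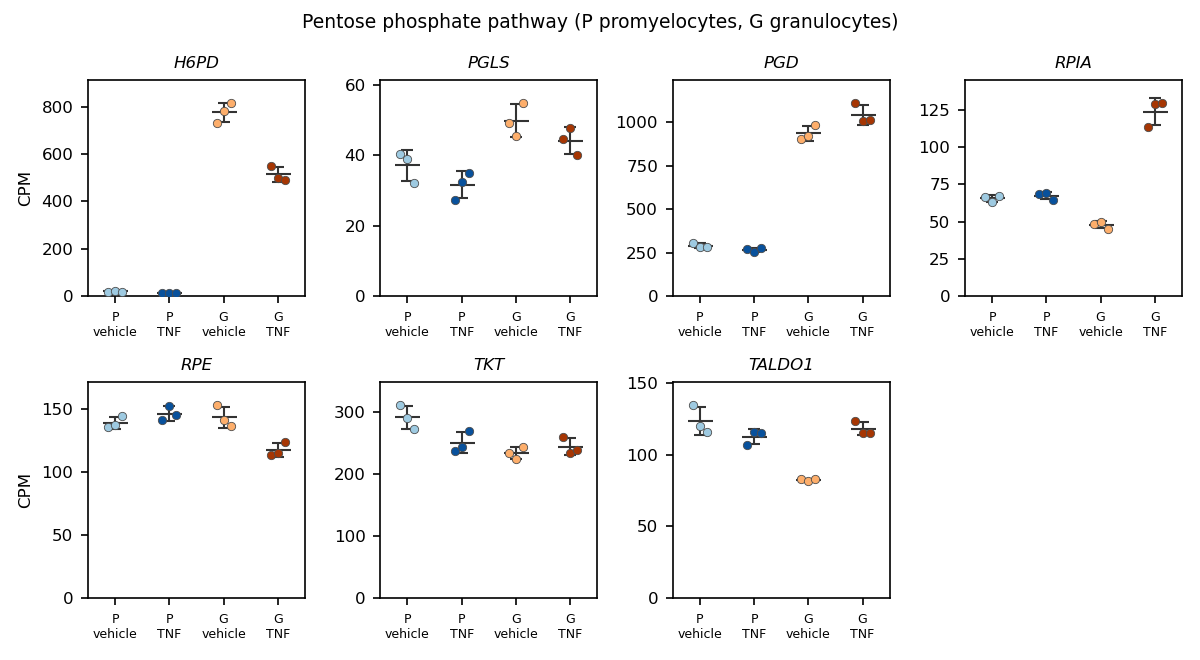
CPM (y axes, from 0) in each library of the pentose phosphate genes in promyelocytes (P) and granulocytes (G) with vehicle or TNF-α, with mean and SD. *PGD*, *RPIA* and *TALDO1* lay higher with TNF-α in the 3 granulocyte libraries, while *H6PD* and *RPE*, the epimerase beside *RPIA* (143.6 and 117.6 CPM on average), lay lower.

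Both directions of response are visible in the level plots of the 8 members that changed most in granulocytes, 4 of which rose and 4 of which fell.

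**Figure D4:**
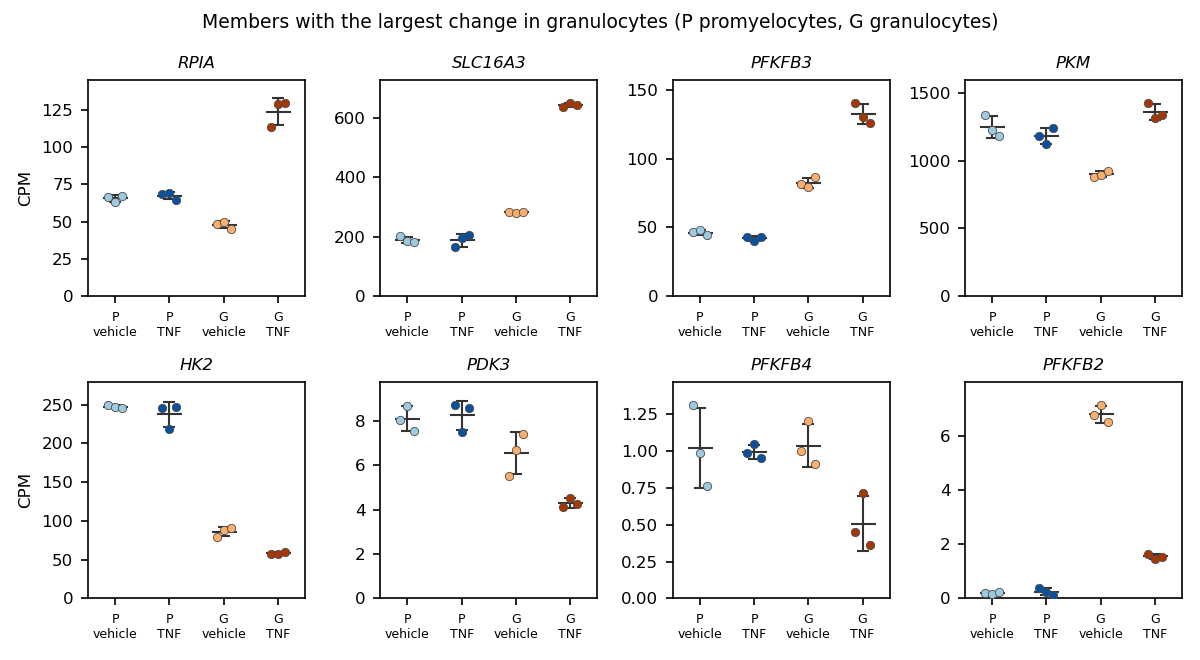
CPM (y axes, from 0) in each library of the 8 members with the largest log2 change in granulocytes, in promyelocytes (P) and granulocytes (G) with vehicle or TNF-α, with mean and SD. The granulocyte groups of all 8 are apart, while the promyelocyte groups overlap in each but *PFKFB3*. The 8 were picked by their change in granulocytes, so nothing is read from this contrast. Over all genes tested 55.2% were apart in granulocytes and 31.1% in promyelocytes.

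Several members have near-identical processed pseudogenes, which could take or lend reads. Counts on genes named as such copies came to at most 0.902% of the parent gene's count in any library, for *PGAM1*, and to 0.185 to 0.349% for *GAPDH*, whose 65 copies are the most. These counts cannot show how reads that match parent and copy equally well were placed. Copies under other names were not searched. Exons of another gene on the same strand covered 5.95% of the exon bases of *GPI*, 4.73% of *PFKFB4*, 2.48% of *PFKP* and 0.678% of *SLC16A3*, and none of the other members. Reads there are left out by the counting.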

How the data were processed

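Total RNA was depleted of ribosomal RNA and sequenced as read pairs. According to the submitters' processing notes and the table's header, the authors checked reads with FastQC 0.11.4, aligned them to hg38 with STAR 2.5.3a and counted pairs per GENCODE v27 gene with featureCounts 1.5.2 (primary alignments, both ends mapped, not chimeric, reverse strand), and they deposited these raw counts. Reads on exons of several genes are left out by default. DESeq2 1.16.1, named in the notes, was applied by the authors after counting. Symbols came from the reference annotation for 57532 of 58288 identifiers.

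Groups were taken from the sample titles and labels. Promyelocytes and granulocytes were fitted separately in R 4.3.3 by edgeR 4.0.16 (normalised by TMM, filterByExpr with minimum count 10 and minimum total 15, quasi-likelihood test, prior count 0.125, Benjamini-Hochberg adjustment over all genes tested, threshold 0.05). The difference of responses, granulocyte minus promyelocyte, was tested as an interaction over all 12 libraries, scaled together, so it need not equal the difference of the printed log2 changes. An SE is the absolute log2 fold change divided by the square root of its F value. The fits were tested on simulated data. Isozyme shares were computed from counts per kilobase of annotated exon. Replicate libraries of a group differed by 3.37 to 12.7 times the sampling noise, so none was a duplicate.

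The members and gene lists were chosen with earlier results of these data known. Library values are given for members whose responses differed, the 8 with the largest change among those called in each cell type, and *GAPDH*. Of other pathway genes, those called with a log2 change of at least 0.5 are named, apart from a result not reported here; *RPE* and genes in the closing section were named after their values were seen. Motifs were searched in RefSeq promoter windows (GRCh38.p14), of which 56 of 56 member windows equal the reference genome at their coordinates. Printed stretches are the longest upstream runs outside annotated exons. Alternatives were DESeq2 size factors, library totals, no expression filter, DESeq2 1.42.0, a replicate block, a threshold of 0.01, spline offsets for GC content and length (5 degrees of freedom), 1 fit of all 12 libraries, leaving out each library, and shares without length. The RT-qPCR data were not analysed here.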

Additional observations from a re-analysis of the deposited data

Results flagged for a closer look

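The test of the difference between the TNF-α responses of granulocytes and promyelocytes picked out 16 of the 31 members tested. Of all 18124 genes tested 24.0% differed, 14.1% higher and 9.88% lower. Cell type and experiment cannot be told apart in this difference. With positive values, where the response was higher in granulocytes, were *RPIA* (1.38), *SLC16A3* (1.23), *PFKFB3* (0.86), *PKM* (0.71), *TALDO1* (0.68), *PFKP* (0.57), *PFKL* (0.43), *GPI* (0.38), *ALDOA* (0.36), *ENO1* (0.33), *PGD* (0.32) and *TKT* (0.32). With negative values, where it was lower, were *PFKFB2* (-2.36), *PDK3* (-0.60), *HK2* (-0.47) and *PGAM1* (-0.24). The value of *PFKFB2* rests on 4 to 10 counts a library in promyelocytes. Of these 16 genes 11 rose in granulocytes without passing the test in promyelocytes, and 4 fell in granulocytes. *TKT* was called only in promyelocytes, where it fell.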

How the results depend on the processing

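Over 1005 values of single genes under alternatives, 912 kept direction and side of the threshold, 70 lost the call, 1 gained it and 22 changed sign. The 912 include genes that were not called and stayed so, and do not give the share of calls that held. A threshold of 0.01 left 1438 of all genes in promyelocytes and 2843 for the difference, and 0, 6 and 2 falling members in promyelocytes, granulocytes and the difference. DESeq2 left 6 falling members in granulocytes, and library totals gave 8 for the difference. With no expression filter 2 members fell in promyelocytes, and after GC content and length correction 1 (*PFKL*) rose and 2 fell. Replicate numbers did not pair the libraries (correlations of same-numbered deviations -0.198 to -0.008), and the replicate block left 0 of the members called in promyelocytes, 18 of 22 in granulocytes and 15 of 16 for the difference. In promyelocytes the GC and length correction turned the sign of *GAPDH* (0.0046), *ENO1* (0.0021), *SLC16A3* (0.12) and *PDK3* (-0.011), as did no filter for *SLC16A3* (0.0005). In granulocytes library totals turned *GAPDH* (-0.052), *PGK1* (-0.004) and *TKT* (-0.068), and the correction turned *GAPDH* (-0.0697) and *TKT* (-0.071), and in the difference *GAPDH* (-0.064). No cause of these changes was tested.

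Leaving out single libraries gave 1598 (without vehicle library 2) to 2475 genes called in promyelocytes, 0 to 2 falling members there, and 2 (without granulocyte vehicle library 3) to 4 falling members in the difference. Among the 19 isozyme shares in promyelocytes, 4 to 8 had groups that did not overlap (8 without vehicle library 1 or TNF-α library 1). With all libraries it was 4 of 19 there and 14 of 19 in granulocytes. The shares of a 2-gene family mirror each other, and 2 libraries against 3 come apart more easily than 3 against 3. Log2 changes in promyelocytes that changed sign ran from -0.085 to 0.001 for *HK2*, -0.045 to 0.089 for *PFKL*, -0.21 to 0.18 for *PFKFB4*, -0.088 to 0.028 for *GAPDH*, -0.062 to 0.043 for *PGAM1*, -0.065 to 0.0103 for *ENO1*, -0.0695 to 0.085 for *SLC16A3* and -0.016 to 0.098 for *PDK3*. None of these passed the test in promyelocytes. Depth limits *PFKFB2* in promyelocytes and *ENO2*, which lay near the floor of 3 counts.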

Other observations

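The other subunits of pyruvate dehydrogenase and its phosphatases, named here after their values were seen, did not move as 1 group. *PDHX*, the E3-binding subunit, rose in both cell types (log2 changes 0.25 and 0.28, adjusted p = 0.0072 in promyelocytes and 1.8e-04 in granulocytes), and so did *DLD*, the E3 subunit (0.21 and 0.15). *DLAT*, the E2 subunit, fell in granulocytes from 75.0 to 63.4 CPM (log2 change -0.24), where *PDHB* also fell. *PDP1*, the phosphatase that switches the complex on, rose in granulocytes from 21.0 to 25.7 CPM (log2 change 0.30, difference of the responses 0.52). *PDP2*, the other phosphatase, fell in promyelocytes (log2 change -0.22, adjusted p = 0.0177) and was not called in granulocytes (0.09, adjusted p = 0.255). *RPE*, which turns the same substrate as *RPIA* into xylulose-5-phosphate, fell in granulocytes by 0.29 on the log2 scale while *RPIA* rose.

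The genes within 200 kb of the 8 members that changed most in granulocytes were looked at after those changes were seen. Near *SLC16A3* 7 rose and 5 fell of 20 tested, near *PKM* 2 and 3 of 8, and near *HK2* 1 and 1 of 3. Rises and falls were 3 and 0 of 8 near *PFKFB3*, 2 and 0 of 12 near *PFKFB4*, 1 and 0 of 2 near *RPIA* and 0 and 1 of 2 near *PDK3*. Only near *PFKFB2* did every gene tested fall, so this place was picked from 8. Of 18 genes near it, 4 passed the filter on low counts in granulocytes. *FCAMR* had 96, 84 and 102 counts with vehicle and 7, 11 and 9 with TNF-α (log2 change -3.13, adjusted p = 6.97e-12). *FCMR* had 55, 57 and 64 and then 14, 16 and 3 counts (-2.17, adjusted p = 1.05e-06), and *C1orf116* 11, 22 and 26 and then 5, 7 and 2 counts (-1.81, adjusted p = 0.00201). *YOD1*, at 1302 to 2307 counts, changed by -0.32 (adjusted p = 3.72e-06). In promyelocytes *YOD1* rose by 0.21 (adjusted p = 0.0263). The first 3 passed the filter through their vehicle libraries, which favours falls, so nothing is read from the number of neighbours that fell. Near *PFKFB3* the neighbour *IL2RA* had 7, 17 and 4 counts with vehicle and 66, 105 and 46 with TNF-α. It passed the filter through its TNF-α libraries, which favours a rise. Over all genes tested 24.4% rose and 24.8% fell.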
